A study of Mus musculus with 34 samples.

Results

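The genes described here are 37 mouse genes best known for their products in liver, measured in 34 lungs. Of the 37, 31 encode proteins secreted into plasma and 6 encode liver enzymes or cytosolic proteins (Cps1, Tat, Tdo2, Hpd, Cyp2e1 and Fabp1), so not every gene is a secreted protein gene. They were found on the array through the RefSeq accession of each probe, and of several probes for a gene the one with the brightest lung signal was used. A probe was found for 36 of the 37, among 37074 genes or unnamed accessions in all. Serpina1b had none and is not analysed here. All 36 were well above background on at least 3 of the 34 arrays, on between 4 and 34 of them, so a filter on low signal removed no gene. Apoh and Mup3 passed it through lungs high in Alb (given below).

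The lungs came from female C57BL/6 mice, 5 to 7 weeks old, taken 28 days after a single intratracheal instillation in 40 µl. The material was NRCWE-045 at 54 µg (5 mice) or 18 µg (3 mice), NRCWE-044 at 54 µg (5 mice) or 18 µg (6 mice), or NRCWE-043 at 54 µg (5 mice) or 18 µg (5 mice), and the controls had a dose of 0 µg (5 mice). The submitters call the materials CNT, carbon nanotubes, and the series set out to rank them by their effect on lung pathways. The labels do not say what the control mice received, state 5 samples per group where the groups hold 3 to 6, and give one control array the name NRCWE-043 with a dose of 0 µg. The RNA was extracted from randomly chosen pieces of the frozen organ, and each necropsy also yielded liver and heart. Each array carried the RNA of 1 lung in Cy5 and a universal mouse reference RNA from 11 cell lines in Cy3, with no dye swap, so every value is a log2 ratio of lung over reference RNA.

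In the lung channel 50.9 to 68.5% of probes per array exceeded background clearly by the scanner's own flag, which is what well above background means here. Genes of the labelled tissue were measured: 9 of 9 alveolar type 2, 6 of 6 alveolar type 1 and 8 of 8 endothelial genes were well above background on all 34 arrays. For club cells it was 4 of 6 and for fibroblasts 7 of 8. The same held for 9 of 9 mesothelial, 9 of 9 blood, 10 of 17 fat cell and 7 of 13 cardiac muscle genes. Such presence therefore does not by itself tell lung from other tissue. The arrays sat on 6 slides. In bulk RNA, fewer cells of a type and less RNA per cell cannot be told apart. Nothing in the labels pairs mice between groups, and p-values measure only the spread between these samples.

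Hepatocytes make most of the proteins of blood plasma, among them albumin, apolipoproteins, protease inhibitors and clotting factors, and these genes are mostly silent or low elsewhere. Their promoters in rodents are classically bound by liver-enriched transcription factors such as HNF1 and the C/EBP family. Some of them, haptoglobin and the orosomucoids among them, are acute phase genes, which are induced by inflammation and are also expressed outside liver, for example in fat.

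RefSeq promoter sequences of build GRCm38.p6 were found for 30 of the 37 genes, and none is shown for Ttr, Cps1, Serpina3k, Apoc3, Kng1, Hp and Orm1. In the 250 bases before each gene start, both strands were searched for GTTAAT, a half-site of HNF1, and for TTGCNNAA, a C/EBP core. These letters occurred in 6.43% and 9.56% of all 32851 promoters. GTTAAT was found in 7 of 21 promoters of Alb and the genes that co-varied with it (defined below) and in 3 of 8 of the genes that did not. TTGCNNAA was found in 9 of 21 and in 3 of 8. A match is only a description of the letters, and 4 of the 7 GTTAAT promoters are near-identical Serpina1 copies. The Alb promoter is shown whole because Alb is the yardstick of the comparisons, on the plus strand of chr5:90460620-90460869, with the C/EBP core and the HNF1 half-site in capitals (the core reads on the minus strand).
Alb promoter: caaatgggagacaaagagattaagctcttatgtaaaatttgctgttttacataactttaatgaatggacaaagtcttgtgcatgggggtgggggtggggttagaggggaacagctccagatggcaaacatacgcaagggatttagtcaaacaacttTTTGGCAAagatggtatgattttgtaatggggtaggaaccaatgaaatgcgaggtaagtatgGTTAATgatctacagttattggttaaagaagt
Shorter windows are shown for 3 genes that co-varied with Alb (Gc, Fgb and Serpina1a) and 2 that did not (Fga and Orm2), 5′ to 3′ on the strand of the gene, with the match in capitals. They lie at chr5:89457931-89457964 (minus), chr3:83049873-83049906 (minus), chr12:103863621-103863654 (minus), chr3:83026096-83026129 (plus) and chr4:63362315-63362350 (plus). The Gc and Serpina1a matches read GTTAAT and the Fgb and Fga matches its reverse complement. The Orm2 match is the C/EBP palindrome TTGCGCAA, which 0.164% of all promoters held and no other searched gene of the set did.
Gc: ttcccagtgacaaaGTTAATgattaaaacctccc
Fgb: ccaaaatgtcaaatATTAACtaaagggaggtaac
Serpina1a: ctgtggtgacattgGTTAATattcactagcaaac
Fga: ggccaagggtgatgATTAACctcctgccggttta
Orm2: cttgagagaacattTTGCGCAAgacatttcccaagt

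Alb, the gene of serum albumin, was low on most arrays and far higher in a few single lungs. Its log2 ratio was 3.25, 0.84, 0.32, 0.07 and 0.64 in the 5 lungs given 54 µg of NRCWE-045. It was 2.21, 5.32 and 1.48 in the 3 lungs given 18 µg of NRCWE-045. It was 2.39, 0.11, 0.41, 0.27 and 0.10 in the 5 lungs given 54 µg of NRCWE-044. Thus 2 of 5 lungs at 54 µg and all 3 at 18 µg of NRCWE-045, and 1 of 5 at 54 µg of NRCWE-044, stood above every control. Among the 6 lungs given 18 µg of NRCWE-044, Alb ranged from 0.10 to 1.20 with a median of 0.26, and 1 lung stood above every control. It was 0.18, 0.09, 0.25, 0.02 and 0.32 in the 5 lungs given 54 µg of NRCWE-043, and 0.41, 0.20, 0.34, 0.10 and 0.27 in the 5 given 18 µg. The controls had 0.70, 0.53, 0.45, 0.44 and 0.42, a mean of 0.51 ± 0.12 (SD, n = 5). All 10 NRCWE-043 lungs lay below all 5 controls for Alb. So did the NRCWE-044 lungs other than replicate 1 at 54 µg (0.10 to 0.41) and at 18 µg (0.10 to 0.39). The NRCWE-045 54 µg lungs at 0.32 and 0.07 lay below all 5 controls as well. The probe was well above background on only 21 of the 34 arrays, 4 of them controls.

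Replicate 2 of NRCWE-045 18 µg stood furthest out. Its Alb spot had a Cy5 intensity of 31605, against 102.5 to 147.5 in the controls. The next brightest lungs, replicate 1 of NRCWE-045 54 µg and replicate 1 of NRCWE-044 54 µg, had 1622 and 563 for Alb, and replicates 1 and 3 of NRCWE-045 18 µg had 556.5 and 351.

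**Figure D1:**
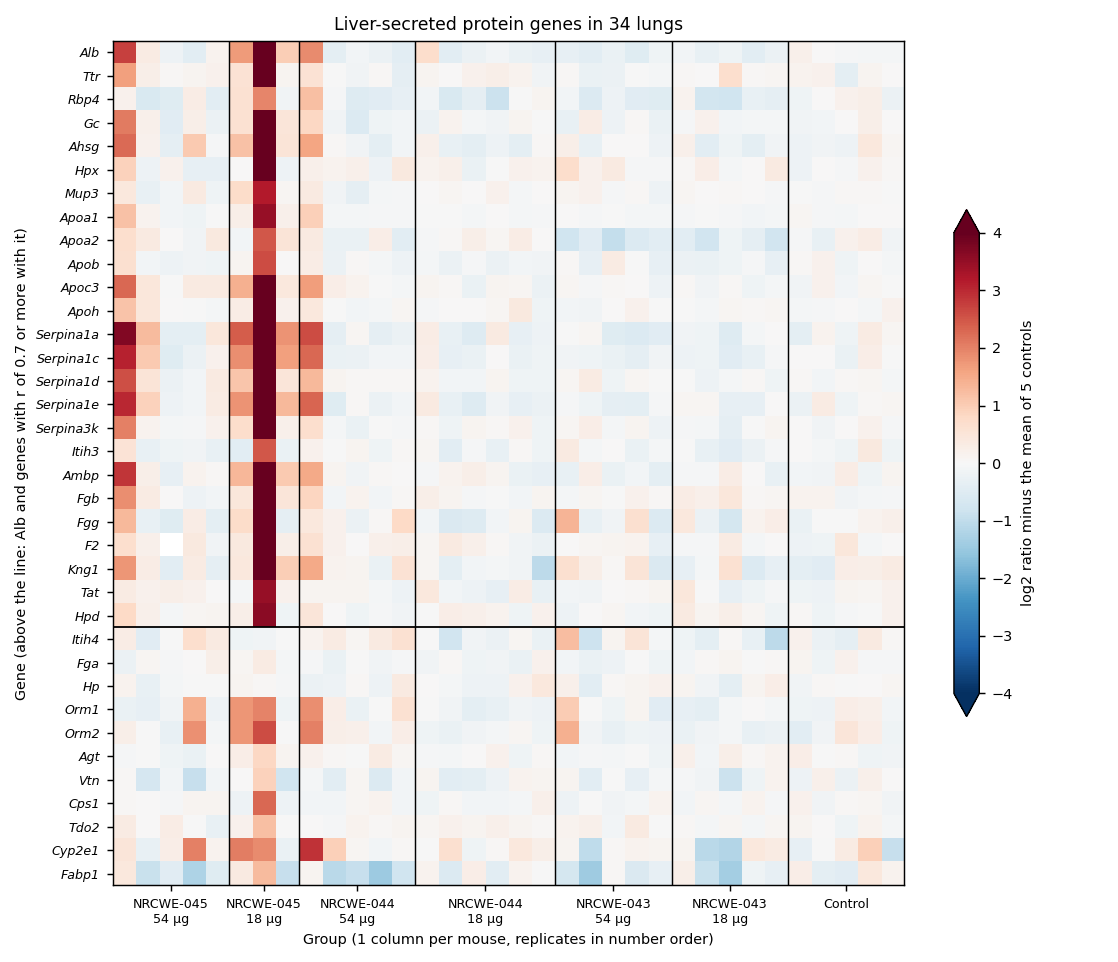
The 36 genes (rows) in the 34 lungs (columns, by group, controls at the right). Colour gives the log2 ratio minus the control mean of the gene, limited to 4 in either direction. An empty cell marks a missing F2 value. One column, replicate 2 of NRCWE-045 18 µg, is high in most rows, and replicate 1 of NRCWE-045 54 µg and of NRCWE-044 54 µg are high in fewer.

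Over the 34 arrays, 24 of the 35 other genes had a Pearson correlation with Alb of 0.7 or more, as did 0.392% of all genes tested, and these are called the genes that followed Alb. The points share the reference RNA and the slides, and the correlation rests on few lungs, so it is given as a description. Apoh was well above background only in the 4 lungs highest in Alb, and Mup3 only in those and replicate 4 of NRCWE-045 54 µg. For such genes the correlation sets measured values against values near the floor of the array. With the scanner's processed intensities 7 genes reached 0.7. Without replicate 2 of NRCWE-045 18 µg alone, 14 of 35 genes reached 0.7 (0.119% of all genes). Without the pair of arrays farthest from the Alb median, 10 did (0.0715% of all), and without the 4 arrays highest in Alb, 4 did (0.017% of all). Those 4 were Apoa1, Serpina1a, Serpina1c and Serpina1e. By rank, 2 genes reached a Spearman correlation of 0.7 with Alb over all arrays, Serpina1c at 0.75 and Serpina1e at 0.73.

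By role, the share that followed Alb differed. It was 6 of the 6 other carrier proteins, 5 of 5 apolipoproteins, 7 of 8 protease inhibitors and 4 of 5 coagulation and kinin genes. It was 2 of 6 enzymes and cytosolic proteins, 0 of the 3 genes placed under acute phase (Hp, Orm1 and Orm2) and 0 of 2 other secreted proteins. Each gene was given 1 role, so genes under other roles may also be acute phase genes. Just inside the threshold lay Itih3, Fgg and Hpx, each at 0.76, and just outside it Cps1 and Tdo2, each at 0.68. Without the pair of farthest arrays, 4 of the 24 fell below 0.3: Hpx at -0.14, Itih3 at -0.01, Fgg at 0.13 and Tat at 0.21.

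**Figure D2:**
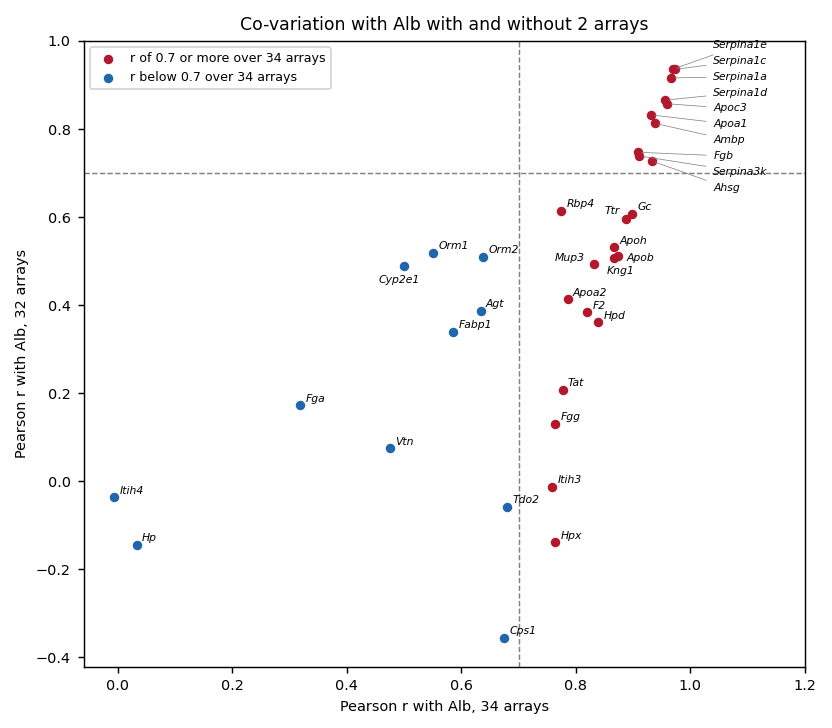
Pearson correlation of each gene with Alb over all 34 arrays (horizontal axis). The vertical axis gives the same correlation without the 2 arrays farthest from the Alb median. Colour marks whether a gene followed Alb. The Serpina1 genes, Apoc3, Apoa1 and Ambp stay above 0.8 on both axes, and Hp and Itih4 lie near 0 on both.

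The carrier proteins bind hormones, vitamins, haem and lipids in plasma. Ttr, transthyretin, which carries thyroid hormone and retinol-binding protein, had log2 ratios of 0.46, 5.12 and -0.01 in NRCWE-045 18 µg, 1.53 in replicate 1 of NRCWE-045 54 µg and -0.52 to 0.06 in the controls. Ttr was not well above background in any control. Gc, the vitamin D binding protein, had 0.64, 5.95 and 0.52 in NRCWE-045 18 µg, 2.12 in replicate 1 of NRCWE-045 54 µg and -0.12 to 0.27 in the controls. For Gc all 3 lungs of NRCWE-045 18 µg lay above the 5 controls, whereas for Ttr 1 of the 3 lay among them. Ahsg, fetuin-A, a mineral-binding protein of plasma, had 1.85, 5.55 and 1.20 in NRCWE-045 18 µg, 2.25 in replicate 1 of NRCWE-044 54 µg and 0.47 to 1.1 in the controls. Hpx, the haem scavenger hemopexin, reached 5.30 in replicate 2 of NRCWE-045 18 µg but was 0.28 and 0.08 in the other lungs of that group, within the 0.07 to 0.46 of the controls. Rbp4, the plasma carrier of retinol, had 3.54, 4.87 and 2.77 in NRCWE-045 18 µg, 4.12 in replicate 1 of NRCWE-044 54 µg and 2.67 to 3.16 in the controls. Mup3, a major urinary protein with close relatives in the genome whose signals a probe may not separate, was at 0.62, 3.04 and -0.05 in NRCWE-045 18 µg and at -0.17 to -0.07 in the controls.

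The apolipoproteins package lipids into lipoprotein particles. Apoa1, the main protein of HDL, had log2 ratios of 0.35, 3.59 and 0.31 in NRCWE-045 18 µg, 1.29 in replicate 1 of NRCWE-045 54 µg, 1.06 in replicate 1 of NRCWE-044 54 µg and 0.01 to 0.19 in the controls. Those 5 lungs were the highest of the 34 for Apoa1. Apoc3, an inhibitor of triglyceride clearance, had 1.50, 5.20 and 0.49 in NRCWE-045 18 µg, 2.37 in replicate 1 of NRCWE-045 54 µg and -0.06 to 0.24 in the controls, none of which was well above background. Apoa2, another HDL protein, had 0.89, 3.51 and 1.52 in NRCWE-045 18 µg and 0.71 to 1.31 in the controls, well above background in all. Apob, the scaffold of VLDL and LDL, reached 2.82 and Apoh, beta-2 glycoprotein I, 4.35 in replicate 2 of NRCWE-045 18 µg. In the other 2 lungs of that group Apob had 0.32 and 0.24, against 0.05 to 0.39 in the controls, so only replicate 2 stood apart.

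The protease inhibitors include the genes with the closest relation to Alb. Serpina1a, one of the mouse alpha-1 antitrypsin genes, whose human counterpart inhibits neutrophil elastase, had 4.11, 1.67, 0.02, 0.02 and 0.86 in NRCWE-045 54 µg. It had 2.84, 5.67 and 2.22 in NRCWE-045 18 µg and 3.03, 0.07, 0.49, 0.04 and 0.18 in NRCWE-044 54 µg, against 0.04, 0.56, 0.26, 0.74 and 0.48 in the controls. All 3 lungs of NRCWE-045 18 µg, 3 of 5 of NRCWE-045 54 µg and 1 of 5 of NRCWE-044 54 µg exceeded every control for Serpina1a. Serpina1c had the same order of the 5 highest lungs, with 2.22, 4.72 and 2.00 in NRCWE-045 18 µg, 3.42 in replicate 1 of NRCWE-045 54 µg and 0.09 to 0.61 in the controls. Serpina1e had 2.13, 4.41 and 1.64 in NRCWE-045 18 µg and 0.10 to 0.66 in the controls. Serpina1a to Serpina1e are near-identical copies, so their probes may read each other's RNA, and they do not count as separate observations. Ambp, the precursor of alpha-1 microglobulin and the inhibitor bikunin, had 1.07, 7.00 and 0.79 in NRCWE-045 18 µg, 2.58 in replicate 1 of NRCWE-045 54 µg and -0.45 to 0.03 in the controls. For Ambp, too, the 3 lungs lay above all 5 controls. Serpina1d had 1.08, 5.21 and 0.47 in NRCWE-045 18 µg and -0.13 to 0.06 in the controls. Serpina3k, a mouse antichymotrypsin relative, had 0.79, 5.45 and 0.29 in NRCWE-045 18 µg and -0.06 to 0.25 in the controls. For both, as for Ambp, the groups did not overlap, and the probe was well above background in 1 of 5 controls. Itih3, a heavy chain of the inter-alpha-trypsin inhibitors, had 0.63, 3.55 and 0.79 in NRCWE-045 18 µg and 0.89 to 1.44 in the controls, so only replicate 2 lay above them.

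Of the coagulation and kinin genes, Fgb, the fibrinogen beta chain, had 0.43, 5.37 and 0.44 in NRCWE-045 18 µg, 1.83 in replicate 1 of NRCWE-045 54 µg and -0.17 to 0.11 in the controls, none of which was well above background. Fgg, the gamma chain, had 1.73, 5.54 and 0.64 in NRCWE-045 18 µg, against 0.71 to 1.17 in the controls, and 2.32 in replicate 1 of NRCWE-043 54 µg, where Alb had 0.18. The probe used for Fga, the alpha chain, did not move with either: it had 0.30, 0.55 and 0.15 in NRCWE-045 18 µg and 0.03 to 0.37 in the controls. A second Fga probe, well above background on 2 arrays, stood 1.23 above the control mean in replicate 2 of NRCWE-045 18 µg, where the probe used stood 0.34 above it. The correlation with Alb was 0.68 for this second probe, just outside the threshold, and 0.32 for the probe used. Kng1, the kininogen from which bradykinin is cut, had 0.05, 5.20 and 0.59 in NRCWE-045 18 µg and -0.83 to -0.05 in the controls. F2, prothrombin, had -0.12, 3.87 and -0.27 in NRCWE-045 18 µg and -0.71 to -0.03 in the controls; one irregular F2 spot, in replicate 3 of NRCWE-045 54 µg, was left out and its value is missing.

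**Figure D3:**
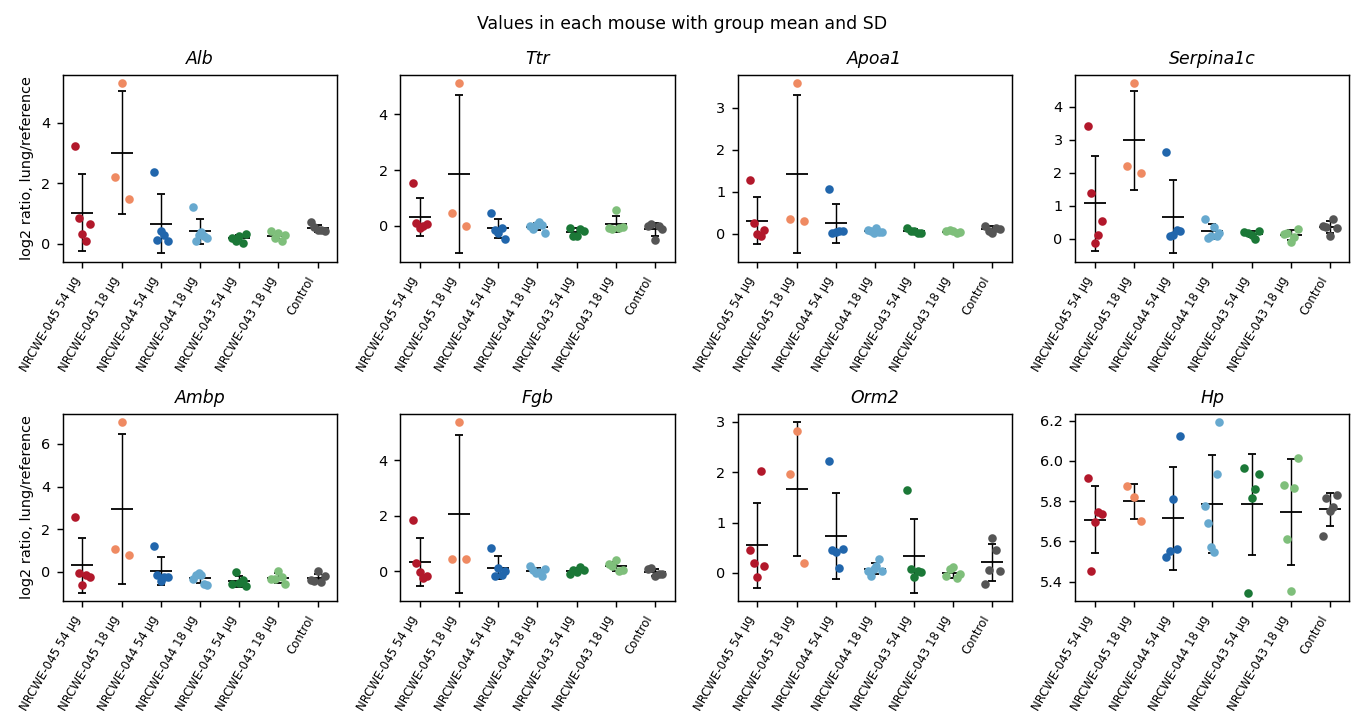
Log2 ratio of 8 genes (Alb, Ttr, Apoa1, Serpina1c, Ambp, Fgb, Orm2 and Hp) in each lung (points), by group with the controls at the right, with the group mean and SD. Ambp reaches 7.00 in 1 lung of NRCWE-045 18 µg and lies at or below 0.03 in the 5 controls, while Hp lies between 5.35 and 6.19 in every lung.

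Of the liver enzymes, Tat, Hpd, Cps1 and Tdo2 had their highest value in replicate 2 of NRCWE-045 18 µg. Tat, tyrosine aminotransferase, had 0.34, 3.90 and 0.57 in that group and 0.21 to 0.59 in the controls. Hpd, a later step of tyrosine breakdown, had 0.10, 3.49 and -0.31 in NRCWE-045 18 µg and -0.30 to 0.04 in the controls. Cps1, which starts the urea cycle, had -0.13, 2.36 and -0.13 in NRCWE-045 18 µg and -0.08 to 0.24 in the controls. In each of these 3 genes at least 1 of the other lungs of the group lay among or below the controls. Tdo2, tryptophan dioxygenase, had 0.08, 1.11 and -0.11 in NRCWE-045 18 µg and -0.26 to 0.06 in the controls, none of which was well above background.

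How many genes stood out in a lung was counted as those more than 1 log2 unit above the control mean, Alb aside. In replicate 2 of NRCWE-045 18 µg there were 30 of 35, against 1.08% of all genes tested, and all 24 genes that followed Alb were among them. In replicate 1 of NRCWE-045 54 µg there were 15 of 35 (0.194% of all), in replicate 1 of NRCWE-044 54 µg 12 (1.4%), and in replicates 1 and 3 of NRCWE-045 18 µg 10 (1.06%) and 4 (0.235%). In replicate 2 the medians by role, over Alb and the genes that followed it, were 4.88 log2 units for the carriers, 3.49 for the apolipoproteins, 5.22 for the protease inhibitors and 4.98 for the coagulation genes. For 6 of those genes no control was well above background, so these log2 distances are not measured folds for them. The 11 genes that did not follow Alb had a median of 1.19 in that lung, from -0.13 for Itih4 to 2.60 for Orm2. Following Alb was defined with this lung included, and it weighed heavily in the correlation. That all 24 stood out here, and their contrast with these 11, is therefore partly built in.

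On the linear Cy5 scale, after quantile scaling between arrays, the excess over the control mean in the further lungs was a few percent of that in replicate 2 of NRCWE-045 18 µg. For Alb it was 2.23% in replicate 1 of NRCWE-045 54 µg, 0.66% in replicate 1 of NRCWE-044 54 µg, and 0.59 and 0.54% in replicates 1 and 3 of NRCWE-045 18 µg. Over Alb and the genes that followed it, where well above background, the median in replicate 1 of NRCWE-045 54 µg was 2.49%, with a range of 0.95 to 5.17% over 25 genes. In replicate 1 of NRCWE-044 54 µg it was 1.02%, with a range from -0.13% to the 30.3% of Rbp4, which fat also makes. In replicates 1 and 3 of NRCWE-045 18 µg the medians were 0.58% (24 genes) and 0.54% (21 genes). The range of relative size was narrower in replicate 1 of NRCWE-045 54 µg than in replicate 1 of NRCWE-044 54 µg.

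**Figure D4:**
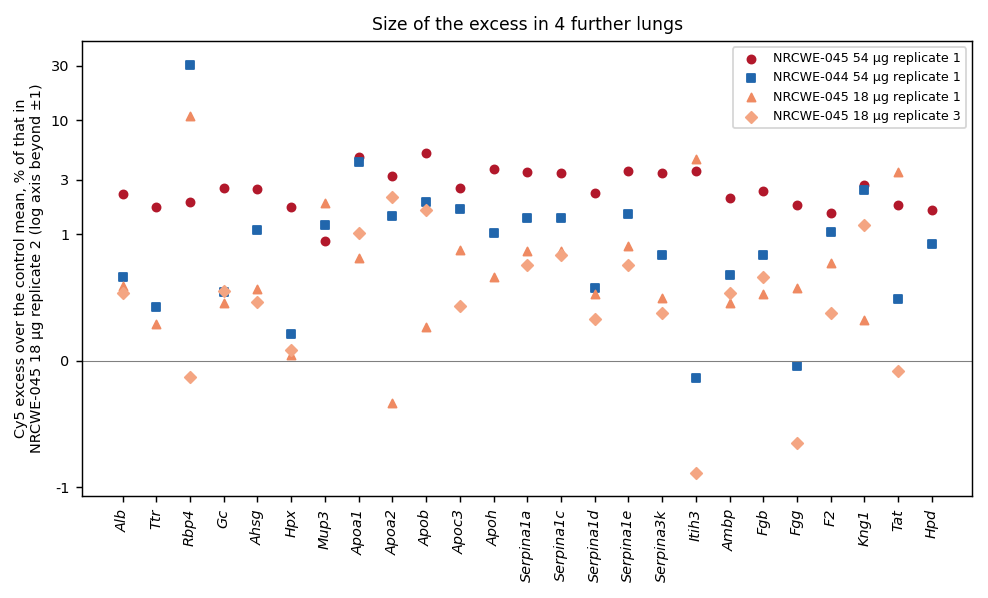
Cy5 excess over the control mean in 4 further lungs, as a percent of that in replicate 2 of NRCWE-045 18 µg (vertical axis, log scale beyond 1% in either direction), for Alb and the genes that followed it and were well above background there (points). The points of replicate 1 of NRCWE-045 54 µg lie between 0.95 and 5.17%, and Rbp4 reaches 30.3% in replicate 1 of NRCWE-044 54 µg.

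The genes that did not follow Alb behaved in several ways. Hp, the hemoglobin scavenger haptoglobin, had log2 ratios of 5.91, 5.45, 5.70, 5.75 and 5.74 in NRCWE-045 54 µg and 5.87, 5.82 and 5.70 in NRCWE-045 18 µg, against 5.62, 5.82, 5.75, 5.77 and 5.83 in the controls. Its groups overlapped, and its correlation with Alb was 0.03. Itih4, an acute phase protein of the inter-alpha-trypsin inhibitor family, had 5.65, 5.69 and 5.80 in NRCWE-045 18 µg and 5.47 to 6.19 in the controls. Its highest value among the 34 lungs, 7.05, was in replicate 1 of NRCWE-043 54 µg, which also had the highest mean over 11 acute phase genes of lung (0.98, against -0.09 to 0.10 in the controls, with 10 of 11 tested). Vtn, the adhesion protein vitronectin, and Fabp1, the liver fatty acid binding protein, were well above background in all lungs. Vtn had 3.31, 4.21 and 2.50 in NRCWE-045 18 µg and 3.06 to 3.51 in the controls. Fabp1 had 4.48, 5.39 and 3.22 in NRCWE-045 18 µg and 3.69 to 4.56 in the controls, so for both genes 1 lung of the group lay above and 1 below the controls. Agt, angiotensinogen, had 0.27, 0.83 and 0.10 in NRCWE-045 18 µg and -0.19 to 0.27 in the controls. Of 15 marker lists of cells and tissues other than liver, the one whose mean correlated most with Itih4 was the acute phase list (0.70), with Hp the blood list (0.69), and with Vtn (0.63) and Fabp1 (0.56) the endothelial list. For Fga and Agt the highest was 0.25, for Tdo2 0.27 and for Cps1 0.29.

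The orosomucoids and Cyp2e1 moved with another set of lungs. Orm2, an acute phase plasma glycoprotein, had 0.45, 0.19, -0.08, 2.02 and 0.14 in NRCWE-045 54 µg. It had 1.97, 2.81 and 0.20 in NRCWE-045 18 µg and 2.22, 0.45, 0.41, 0.10 and 0.47 in NRCWE-044 54 µg, against -0.21 to 0.69 in the controls. Orm1 was highest in the same 4 lungs, at 1.61, 1.95, 2.17 and 2.06, and Cyp2e1, a cytochrome that oxidises ethanol, had 4.42, 4.44, 4.31 and 5.31 there, against 1.47 to 3.35 in the controls. In replicate 1 of NRCWE-045 54 µg, where Alb had 3.25, Orm1 had -0.07 and Cyp2e1 2.90. In replicate 4 of NRCWE-045 54 µg, where Orm1 had 1.61, Alb had 0.07.

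Markers of fat cells were high in the same lungs. The mean of 17 fat cell genes stood 2.93 above the controls in replicate 1 of NRCWE-044 54 µg, 2.07 in replicate 4 of NRCWE-045 54 µg, 1.83 in replicate 1 and 1.09 in replicate 2 of NRCWE-045 18 µg, against -0.79 to 0.67 in the controls. The Pearson correlation of this fat mean over the 34 arrays was 0.87 with Orm1, 0.83 with Orm2, 0.89 with Cyp2e1 and 0.75 with Rbp4, against 0.41 with Alb. By rank it was 0.64, 0.34, 0.72 and 0.73 for those genes and 0.02 for Alb, so for Orm2 it rests on few lungs. Orm2 was also 1.64 in replicate 1 of NRCWE-043 54 µg, where the fat mean was 0.44. In replicate 2 of NRCWE-045 18 µg 11 of the 17 stood more than 1 log2 unit above the controls, against 1.08% of all genes tested. Replicate 1 of NRCWE-045 54 µg, the next highest lung in Alb, had a fat mean of -0.35 and a cardiac mean of -1.85. Adipoq, adiponectin, stood 4.83 above the controls in replicate 1 of NRCWE-044 54 µg and 1.84 in replicate 2 of NRCWE-045 18 µg, and Lep, leptin, at 0.13 and -0.04. The mean of 13 cardiac muscle genes was 2.37, 2.49, -0.41 and 1.28 in those same 4 lungs, against -1.08 to 0.93 in the controls. The part of fat or heart RNA in the values of the set was not tested.

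**Figure D5:**
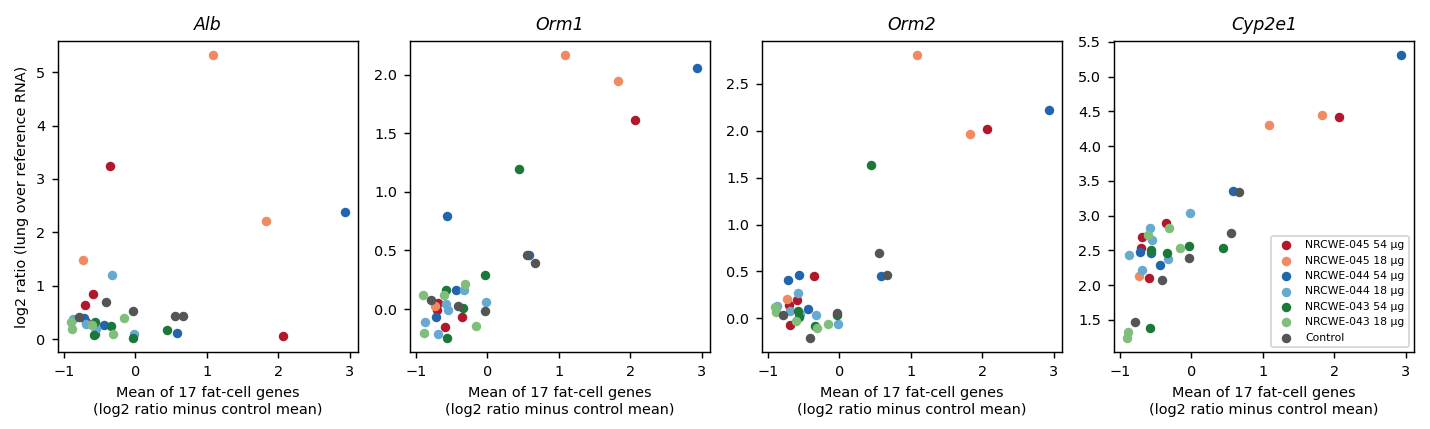
Mean of 17 fat cell genes relative to the controls (horizontal axis, log2) against the log2 ratio of Alb, Orm1, Orm2 and Cyp2e1 (vertical axes) in the 34 lungs (points). Orm1, Orm2 and Cyp2e1 are high in the 4 lungs with a fat score over 1, while Alb has 0.07 in one of those lungs and 3.25 in a lung outside them.

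Marker lists of other tissues and cells had lower correlations with Alb. Over the 34 arrays the correlation with Alb was 0.38 for 6 club cell genes, 0.27 for 9 of oesophagus, stomach and gut, 0.22 for cardiac muscle, 0.24 for thymus and 0.17 for skeletal muscle. It lay between -0.25 and 0.04 for mesothelium, blood, exocrine pancreas, alveolar type 1 and 2 cells, endothelium, fibroblasts, macrophages and acute phase genes of lung. The mean of the 6 club cell genes spanned -1.66 to 1.75 over all lungs and -0.94 to 1.30 in the controls. The highest mean, 1.75, was in replicate 2 of NRCWE-045 18 µg, where Bpifa1 and Reg3g, secreted airway proteins, stood 4.44 and 3.90 above the control mean. The next highest were replicate 1 of NRCWE-044 54 µg at 1.67 and replicate 4 of NRCWE-045 54 µg and replicate 1 of NRCWE-045 18 µg, both at 1.52. Replicate 1 of NRCWE-045 54 µg, next to the highest in Alb, had Bpifa1 and Reg3g at -2.51 and -2.48. The part of these cells in the values of the set was not tested.

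Liver genes outside the set were also high. Of a list of 50 further liver genes, 49 were on the array and 39 passed the filter. Their mean stood 2.29 above the controls in replicate 2 of NRCWE-045 18 µg, against -0.07 to 0.07 in the controls. In that lung 30 of 39 genes stood more than 1 log2 unit above the control mean, against 1.08% of all genes tested. In the next 3 lungs by Alb the mean of the list was 0.44, 0.31 and 0.18. The correlation of this mean with Alb was 0.87, and 0.64 without the pair of farthest arrays. Of all named genes outside the set, the 15 most like Alb over the 34 arrays had correlations of 0.87 to 0.93, among them Mbl2 (0.93), a mannose-binding lectin of plasma, and Mug1 (0.91), a murinoglobulin protease inhibitor. They also held Pzp, Cyp2c68, Serpinc1, Bhmt, Ces2a, Cyp2a12, Mug2, Rgn, Ces3a, Cyp2c67, Cyp4a14 and Cyp2d26; these include antithrombin, carboxylesterases and cytochromes P450. Of these 15, 4 were in the list of further liver genes. Like the set itself, none of the 39 passed the adjusted limma threshold in any comparison (0 of 39).

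Of the 6 dosed groups, NRCWE-045 at 18 µg had the largest median difference from the controls over the set. All dosed groups were compared with the same 5 control lungs, so those comparisons are not independent. Serpina1a averaged 3.58 ± 1.84 in NRCWE-045 18 µg (SD, n = 3) and 0.42 ± 0.27 in the controls (n = 5), a log2 difference of 3.16 ± 0.67 (SE), limma adjusted p = 0.201. Alb averaged 3.00 ± 2.04 in NRCWE-045 18 µg and 0.51 ± 0.12 in the controls, a difference of 2.50 ± 0.58 with adjusted p = 0.229 by limma. All 3 lungs lay above all 5 controls for Alb, and the exact permutation test over samples, two-sided, gave p = 0.0179, the smallest this design allows, and 0.0536 after Benjamini-Hochberg adjustment over the 9 comparisons made. Of the 36 genes 0 passed the adjusted threshold, as did 0% of all 29360 tested in limma. At an unadjusted p under 0.05 there were 30 of 36, against 7.92% of all, and with slide as a block again 30 (10.3% of all), with 0 passing after adjustment. The log2 difference was above 0 for 35 of 36 genes (50.7% of all), with Itih4 the exception at -0.11. In the Cy5 channel alone, without the reference RNA, the Alb difference was 4.07, larger than the 2.50 by the ratio. In replicate 2 the scaled Cy5 level of Alb was 45904.8, against a control mean of 109.57, while its ratio stood 4.81 above the controls. In the reference channel the probe was well above background on 3 arrays for Alb, 2 for Apoc3 and 0 for Fgg and Apoh. For Ambp it was so on 25 and for Serpina1a on 26. Where the reference is as dim as for Alb, the log2 ratio is not a measured fold. For Serpina1a, too, the ratio gave less than Cy5. In replicate 2 its scaled Cy5 level was 72728.2 against a control mean of 168.203, while its ratio stood 5.26 above the controls. The part of a dim reference in the gap between Cy5 and ratio was not tested. By the ratio, the median log2 difference was 1.39 over the 36 genes, 1.97 over those that followed Alb, 0.40 over those that did not and 0.00 over all genes. The split by following Alb was made on these same arrays, so that contrast is no separate evidence. In 15 of 36 genes all 3 lungs lay above all 5 controls, against 3.18% of all genes.

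Replicate 2 carried most of that difference. Without replicate 2 the median over the 36 genes was 0.27, 7 had an unadjusted p under 0.05 (6.81% of all genes), and the difference of Alb was 1.34. Without replicate 1 the limma test called 17 of 36 genes higher, against 0.293% of all, with Alb at 2.89 and adjusted p = 0.0469. Without replicate 3 it called 24 of 36 (0.388% of all), with Alb at 3.26 and adjusted p = 0.0117. Without the 4 lungs highest in Alb, a choice made after seeing the data which leaves replicate 3 alone in its group and assumes that it varies like the other lungs, 3 of 36 were called (0.235% of all). These were Serpina1c at 1.65 ± 0.30 (SE, adjusted p = 0.0033), Serpina1a at 1.80 and Ambp at 1.06, both with adjusted p = 0.0425. Replicate 3 sat on a slide with no control, and replicates 1 and 2 on slides with controls, where Alb stood 1.60 and 4.87 above them. Of the 4 lungs highest in Alb, 3 were on slide 1, which also held 2 controls at 0.70 and 0.53 and the highest NRCWE-044 18 µg lung at 1.20. The part of slide in these values was not tested.

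In 7 genes (Apoc3, Fgb, Ttr, Apoh, Hpd, Mup3 and Tdo2) the probe was well above background in at least 1 lung of NRCWE-045 18 µg but in no control, so the control level is near the floor of the array and no fold is given. On the log2 ratio scale Apoc3 averaged 2.40 ± 2.48 in NRCWE-045 18 µg (SD, n = 3) and 0.07 ± 0.13 in the controls (SD, n = 5), a difference of 2.33 (limma adjusted p = 0.229). The differences were 2.11 for Fgb and 1.97 for Ttr, both with limma adjusted p = 0.276, and 0.44 to 1.60 for the other 4 genes. They rest on replicate 2: without it they were 0.93 for Apoc3, 0.47 for Fgb and 0.34 for Ttr, and 0.03 to 0.41 for the other 4. None of the 7 passed the adjusted threshold.

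At 54 µg of NRCWE-045 the set lay closer to the controls. Alb averaged 1.02 ± 1.28 there (SD, n = 5), against 0.51 ± 0.12 in the controls, a difference of 0.52 with an exact two-sided permutation p of 0.603. The median log2 difference was 0.24, with 30 of 36 genes above 0 (50.5% of all), and limma called 0 of 36, with 0 at an unadjusted p under 0.05 (3.92% of all) and 0 called with slide as a block (0.00341% of all). Without replicate 1, Alb was 0.04 below the controls and the median was 0.04. Set against 18 µg of the same material, the 54 µg group lay above 0 for 1 of 36 genes (48.8% of all), with a median of -1.20, and 29 had an unadjusted p under 0.05 (2.37% of all) with 0 called. For Alb the difference of 54 against 18 µg was -1.98, with an exact two-sided permutation p of 0.143. Without replicate 3 of the 18 µg group, 2 of 36 were called lower (0.0715% of all), and without replicate 2 of that group the median was -0.11.

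With NRCWE-044 at 54 µg the median log2 difference from the controls was 0.13, 26 of 36 genes lay above 0 (50.1% of all), and Alb differed by 0.15, with an exact two-sided permutation p of 1. Without replicate 1 of that group the median was -0.02 and Alb lay 0.29 below the controls. At 54 µg limma called 0 of 36 genes (0% of all), with slide as a block 0 (0.00341% of all), and 1 had an unadjusted p under 0.05 (5.85% of all). At 18 µg the median was -0.04, 12 of 36 genes lay above 0 (50.4% of all) and the Alb difference was -0.11, or 0.11 with slide as a block, with 0 genes called and 0 at an unadjusted p under 0.05 (3.13% of all). At 54 against 18 µg, 27 of 36 genes lay above 0 (49.7% of all), 3 had an unadjusted p under 0.05 (5.24% of all) and 0 were called.

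In the NRCWE-043 lungs the set lay near the controls, and Alb lay below them. The Alb difference was -0.33 at 54 µg and -0.25 at 18 µg, with every lung of both groups below every control, and the exact two-sided permutation p was 0.00794 for each, the smallest possible with 5 against 5, and 0.0357 after adjustment over the 9 comparisons. In limma, across all genes, the adjusted p was 0.999 at 54 µg and 0.988 at 18 µg. With slide as a block the Alb difference at 54 µg was -0.13. Genes with all lungs below all controls numbered 2 of 36 at 54 µg (0.501% of all genes) and 1 of 36 at 18 µg (0.255%). The medians over the 36 genes were -0.04 at 54 µg and -0.06 at 18 µg, with 13 (46.8% of all) and 10 of 36 genes (46.5% of all) above 0. At an unadjusted p under 0.05 there was 1 of 36 at 54 µg (5.63% of all), Apoa2 at -0.63 ± 0.27 (SE, limma adjusted p = 0.835), and 0 at 18 µg (4.35% of all). At 54 against 18 µg, 20 of 36 genes lay above 0 (50.8% of all) and 1 had an unadjusted p under 0.05 (3.13% of all), with 0 called. The probe was well above background in 1 of 5 lungs at 54 µg and 3 of 5 at 18 µg, so these Alb values lie at the lower end of what it measures. Most NRCWE-044 lungs also lay below every control for Alb, so low Alb was not particular to NRCWE-043.

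Other probes, 10 in 10 of the genes, mostly repeated the height of replicate 2 of NRCWE-045 18 µg over the control mean but not always its size. Serpina1a stood 5.26 above by both probes. Apoa2 stood 5.46 above by the other probe and 2.50 by the one used. The other Kng1 probe was well above background on 1 of 34 arrays, so its height over the controls was not measured, and the one used stood 5.58 above. Itih4 stood at -0.04 and -0.13, so it was not high by either.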

How the data were processed

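Lung RNA (200 ng per array, Cy5) and reference RNA (Cy3) were hybridised to 34 two-colour arrays, per the labels. The authors extracted the spots with Agilent Feature Extraction 11.0.1.1, per the file headers, and the deposited scanner files give median spot and local background intensity in each channel, processed intensity, flags (0 or 1) that mark irregular spots and spots well above background, and a log10 ratio that was not used. The authors also deposited a series table of log2 ratios. How it was made is not given in the sources used here. Its array medians lay between -0.04 and -0.00, centred near 0, and it correlated with the ratios computed here at 0.994 to 0.998 across probes, with the same direction.

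Background was subtracted with normexp and an offset of 50, ratios were normalized by loess within arrays, and control and irregular spots were given weight 0 (limma 3.58.1, R 4.3.3). The plan named the mean spot signals, but medians were deposited and used. Of 55681 probes, 27235 had a gene symbol through their accession, which made 20660 named genes. Tests covered genes or accessions whose Cy5 signal was well above background on 3 or more arrays (29360, of which 112 had a missing value on some array). A model with 7 group means was fitted to all 34 arrays and moderated by empirical Bayes in limma, with Benjamini-Hochberg adjustment over all tested at 0.05. Each dose was compared with the controls and 54 with 18 µg, which makes 9 comparisons. Replicate numbers follow deposit order. No 2 arrays were identical (0 pairs). On simulated data at the real spread, 98% of genes given a 4-fold change and 68% of those given a 1.5-fold change were recovered for NRCWE-045 18 µg against control. These rates are over all tested genes and do not apply to the set in that group. There replicate 2 widened the spread, and an Alb log2 difference of 2.50 was not called.

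All genes of the set are named, as are those of the 15 others most like Alb, except 1 that is not reported here, and, for each gene that did not follow Alb, the marker list closest to it. The set, the roles and the marker lists were chosen with earlier results of these data known. A list's mean is the average over its tested genes of the log2 ratio minus the control mean. Alternatives were the processed intensities, the series table, no background correction, Cy5 alone, no filter, slide as a block, leaving out each array, other thresholds for following Alb, other probes, and, chosen after seeing the data, leaving out the 4 arrays highest in Alb.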

Additional observations from a re-analysis of the deposited data

Results flagged for a closer look

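Within groups of 5 or 6 lungs, a lung was singled out where its gap to the nearest other exceeded Dixon's 95% critical value. This held for 34 of 215 gene and group pairs, where chance alone gives about 1 in 20, and the genes are not independent of each other. The 3 lungs of NRCWE-045 18 µg were too few for it. Most of the 34 fell in a pair of lungs.

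In replicate 1 of NRCWE-045 54 µg the log2 ratio stood apart at 3.25 for Alb, 1.53 for Ttr and 2.12 for Gc among the carriers. Among the apolipoproteins it was 1.29 for Apoa1, 0.87 for Apob and 2.37 for Apoc3. Among the protease inhibitors it was 2.57 for Serpina1d, 2.09 for Serpina3k, 1.62 for Itih3 and 2.58 for Ambp, and Fgb had 1.83. The other 4 lungs of that group had 0.07 to 0.84 for Alb and -0.60 to -0.03 for Ambp.

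In replicate 1 of NRCWE-044 54 µg it stood apart at 2.39 for Alb, 4.12 for Rbp4 and 2.25 for Ahsg among the carriers, and at 1.06 for Apoa1 and 1.74 for Apoc3. Among the protease inhibitors it was 3.03 for Serpina1a, 2.64 for Serpina1c, 1.27 for Serpina1d, 2.66 for Serpina1e, 0.77 for Serpina3k and 1.23 for Ambp. Fgb had 0.83, Hpd 0.34 and Orm2 2.22. The other 4 lungs of that group had 0.10 to 0.41 for Alb.

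Single genes stood apart in other lungs. Replicate 4 of NRCWE-045 54 µg had 2.02 for Orm2 and 1.61 for Orm1. Replicate 1 of NRCWE-044 18 µg had 1.20 for Alb, against 0.10 to 0.39 in the other 5. Replicate 1 of NRCWE-043 54 µg had 1.64 for Orm2. Replicate 2 of that group was low, at 1.39 for Cyp2e1 and 5.35 for Hp. In NRCWE-043 18 µg, replicate 3 had 0.56 for Ttr and -0.16 for F2, and replicate 2 had 0.21 for Gc.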

How the results depend on the processing

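The number of arrays limits the precision, and most Alb signals lie near background. No paired analysis was possible because the replicate numbers were given in deposit order and pair nothing. Genes of the set called stayed at 0 in all 9 comparisons under the processed intensities, the series table, no background correction, Cy5 alone, no filter and slide as a block, and the causes of the moves below were not tested. With the processed intensities the Alb difference from the controls was -0.42 for NRCWE-044 54 µg and -0.048 for NRCWE-045 54 µg. With slide as a block it was 0.11 for NRCWE-044 18 µg, and 0.080 for NRCWE-043 at 54 against 18 µg. Of all genes, 1 was called for NRCWE-045 54 µg in Cy5 alone, and 1 each for NRCWE-045 54 µg and NRCWE-044 54 µg with slide as a block. Without the 4 arrays highest in Alb, 69 genes (3 of the set) were called for NRCWE-045 18 µg and 58 (1 of the set) for NRCWE-045 at 54 against 18 µg. Alb then differed by -0.29 for NRCWE-044 54 µg, -0.041 for NRCWE-045 54 µg, and -0.18 for NRCWE-044 at 54 against 18 µg. The genes that followed Alb numbered 7 with the processed intensities, 2 by rank, 10 at a threshold of 0.9, 10 without the 2 farthest arrays, 4 without the 4 highest, and 14 to 26 leaving out each array in turn. Leaving out each array, the genes called ranged from 0 to 3 for NRCWE-043 54 µg, 0 to 13 for NRCWE-044 54 µg and 0 to 114 for NRCWE-045 18 µg (0 to 24 of the set). They ranged from 0 to 3 for NRCWE-044 and 0 to 21 (0 to 2 of the set) for NRCWE-045 at 54 against 18 µg. The Alb difference ranged from -0.29 to 0.29 for NRCWE-044 54 µg, -0.041 to 0.75 for NRCWE-045 54 µg, 1.34 to 3.26 for NRCWE-045 18 µg and -0.18 to 0.41 for NRCWE-044 at 54 against 18 µg. Of the results leaving out 1 array, 282 were classed as the same, 11 counts moved, 3 Alb differences reversed and 2 became stronger. An Alb difference was the same if it kept its direction and its side of the threshold. A count was the same if it was equal to the main count or near it in size.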

Other observations

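The sample titles number the lungs from 1 to 34. The 4 lungs highest in Alb carry the numbers 9, 6, 5 and 7, and the next highest, replicate 3 of NRCWE-045 18 µg, carries 24. The 2 controls on slide 1 carry 1 and 8 and had Alb log2 ratios of 0.70 and 0.53.

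Several liver genes outside the set reached heights over the control mean like those of the set in replicate 2 of NRCWE-045 18 µg. Bhmt, which remethylates homocysteine, stood 6.12 above the control mean there, 1.98 in replicate 1 of NRCWE-045 54 µg, 0.56 in replicate 1 of NRCWE-044 54 µg and 0.77 in replicate 1 of NRCWE-045 18 µg. Serpinc1, antithrombin, stood 5.50, 1.43, 0.95 and 0.71 above it in the same 4 lungs. Mbl2 stood 4.98, 1.89, 0.88 and 0.65 above it. The order of the first 2 lungs was the same for these 3 genes as for Alb. These genes were among those most like Alb on these same arrays, so that order is partly built in. Of the 39 further liver genes tested, 30 stood more than 1 log2 unit above the controls in replicate 2 of NRCWE-045 18 µg, against 1.08% of all genes. Others of that list lay below the control mean there: C6 at -0.69, F7 at -0.72 and F9 at -0.28.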
